A study of Mus musculus with 75 samples.

Results

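At P60, 11 cells that the authors sorted as positive for Myo7a and Slc26a5 (OHC-like cells) were set against 15 supporting cells sorted as negative for both. The latter are the SCs failing to become HCs, here failing cells. Together these were 26 of the 75 single cells of the series. The 2 types were taken from the group named in brackets in each sample's title, and the cells of each type are numbered here as in the titles. The other cells were 16 nascent HCs, 17 WT_P30 OHCs and 16 WT_P60 SCs. The wild-type cells are used below for reference levels and for lists of OHC and SC genes. Levels of the nascent HCs are not reported here. All 75 cells entered the scaling.

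All 26 cells were Tdtomato+ cells picked by hand at P60 from cochleae of Fgfr3-Atoh1-Ikzf2-DTR mice of the C57BL/6 background. These mice carried Fgfr3-iCreER, a tamoxifen-dependent Cre that is active mainly in pillar cells (PCs) and Deiters' cells (DCs), together with CAG-LSL-Atoh1, Rosa26-CAG-LSL-Ikzf2, in which Tdtomato follows Ikzf2, and Slc26a5 DTR, in which the diphtheria toxin receptor is expressed from the prestin locus. Tamoxifen was given at P30 and P31, and diphtheria toxin at P36 at 20 ng/g to kill the endogenous OHCs. Both types therefore carried every allele and received every agent, and the mice behind each cell are not named in the sources used here. The WT_P30 OHCs came from Slc26a5 CreER/+; Ai9/+ mice given tamoxifen at P20 and P21, and the WT_P60 SCs from Fgfr3-iCreER; Ai9/+ mice given tamoxifen at P30 and P31. The authors sorted the 42 Tdtomato+ cells after sequencing, as Myo7a+ and Slc26a5+ (OHC-like), Myo7a+ only (nascent) or neither (failing). The levels of these 2 genes are therefore a description of the sort and not a result.

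Hair cells are the sound receptors of the organ of Corti. OHCs amplify sound by changing their length, a movement driven by prestin, the protein of Slc26a5. SCs such as PCs and DCs surround them, hold them in place and recycle potassium through gap junctions, and they do not replace lost hair cells in adult mammals. Atoh1 is the transcription factor that starts hair cell differentiation, and Ikzf2 encodes helios, a transcription factor of maturing OHCs. The comparison asks how cells in which both factors were turned on differ between those sorted as OHC-like and those sorted as failing.

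The total count on genes was between 6382171 and 20254735 per OHC-like cell (median 9209094) and between 4264780 and 15549187 per failing cell (median 6985617). Each library was 1 cell without molecular identifiers. With no animal named for any cell, each type stands for 1 sample, so no p-value or standard error over cells is given, and SDs describe the spread between cells. Levels are CPM, counts scaled to a common library total with TMM factors, where TMM is the trimmed mean of M values. A gene is called detected from 1 CPM of the unscaled library. Ratios are log2 ratios of group means with 1 CPM added to each. A gene was past 4-fold when the ratio of means and the ratio of medians both exceeded 4-fold in the same direction, and it had no overlap when every cell of one type lay above every cell of the other.

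Library series and cell type were partly confounded. The 26 cells fell into 5 library series, called A to E in order of library number. A series was defined here as a run of library codes with the same letters and nearby code numbers. Whether a series was a separate batch is not stated in the sources used here. Series A held 1 OHC-like cell and 4 failing cells, series B 5 OHC-like cells, series C 10 failing cells, series D 3 OHC-like cells, and series E 2 OHC-like cells and 1 failing cell. Within series B, C and D, series and type cannot be told apart. Several cells stood apart. OHC-like cell 4 had 3348 genes detected, against 7158 to 9654 in the other OHC-like cells, with 36.0% of its counts in 10 genes and 23.8% in mitochondrial genes. Failing cells 2 and 4 had 4859 and 4262 genes detected, and mitochondrial shares of 11.2% and 15.3%. OHC-like cell 1, the only OHC-like cell of series A, had no count of several hair cell genes that the other OHC-like cells held and is given by number wherever it decides a value.

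Of 11045 genes compared, 686 were past 4-fold higher in OHC-like cells (6.21%) and 345 past 4-fold lower (3.12%). Without OHC-like cell 1 these numbers were 796 and 440, of which 672 and 332 were among the genes past 4-fold with all cells. The median ratio over all genes compared was 0.03. The genes furthest on the higher side included hair cell genes for mechanotransduction, efferent signalling and calcium buffering, and those furthest on the lower side included gap junction, cytoskeletal and detoxification genes found in SCs. More genes were detected in OHC-like cells (median 8488) than in failing cells (median 6977), also when all cells were thinned to the same total of 4264780 counts (8469 and 6930).

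Promoter sequence is shown for 4 of the genes that differed furthest or that defined the sort, because Atoh1, the factor turned on in every cell, is a basic helix-loop-helix factor that binds E-boxes. These are the 250 bases before the RefSeq start of each gene in GRCm38, read on the strand of the gene, from chr5:21865605-21865854 (minus strand) for Slc26a5, chr17:28575469-28575718 (plus strand) for Lhfpl5, chr5:65966874-65967123 (plus strand) for Chrna9 and chr14:57104703-57104952 (minus strand) for Gjb2. Capitals mark CAGCTG or CAGATG on either strand.
Slc26a5: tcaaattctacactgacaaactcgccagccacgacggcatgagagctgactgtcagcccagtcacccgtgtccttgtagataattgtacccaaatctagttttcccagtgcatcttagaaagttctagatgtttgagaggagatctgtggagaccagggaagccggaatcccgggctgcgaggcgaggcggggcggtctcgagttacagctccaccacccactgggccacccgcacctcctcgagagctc
Lhfpl5: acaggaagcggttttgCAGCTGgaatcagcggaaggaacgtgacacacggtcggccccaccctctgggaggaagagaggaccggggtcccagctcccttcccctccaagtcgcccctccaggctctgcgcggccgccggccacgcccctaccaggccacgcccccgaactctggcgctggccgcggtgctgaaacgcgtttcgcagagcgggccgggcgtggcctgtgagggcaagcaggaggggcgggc
Chrna9: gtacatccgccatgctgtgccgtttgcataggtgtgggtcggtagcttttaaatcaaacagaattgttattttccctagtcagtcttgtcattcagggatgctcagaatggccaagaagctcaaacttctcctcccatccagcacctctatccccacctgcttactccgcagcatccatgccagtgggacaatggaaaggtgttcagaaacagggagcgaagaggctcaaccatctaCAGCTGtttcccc
Gjb2: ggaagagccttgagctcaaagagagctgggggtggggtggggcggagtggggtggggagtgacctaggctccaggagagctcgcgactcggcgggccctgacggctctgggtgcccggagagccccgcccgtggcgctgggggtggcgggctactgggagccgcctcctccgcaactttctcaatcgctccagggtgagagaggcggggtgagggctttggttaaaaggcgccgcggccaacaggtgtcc
Lhfpl5 held 1 CAGCTG beginning 234 bases before its start and Chrna9 held 1 beginning 13 bases before its start, while these letters were not in the windows of Slc26a5 and Gjb2. CAGCTG was in 13% of all 32851 promoters in the table, in 15% of 515 promoters of genes past 4-fold higher and in 13.6% of 273 promoters of genes past 4-fold lower and in 10.9% of 7787 promoters of genes compared and not past 4-fold. For CAGATG, searched on both strands, these shares were 14.4%, 12.6%, 8.06% and 8.9%. These are matches of letters and not binding sites.

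The 2 genes of the sort are described here, and their separation is no check of the labels that were made from them. Myo7a, an unconventional myosin of hair cells (chr7:98051060-98119524, minus strand), was between 50.3 and 4327 CPM in the OHC-like cells (median 671) and between 0 and 28.1 CPM in the failing cells (median 0). All OHC-like cells lay above all failing cells, but 3 of 15 failing cells had Myo7a detected, at 28.1 CPM in cell 2, 18.4 CPM in cell 15 and 2.24 CPM in cell 7. Slc26a5 (chr5:21810655-21865604, minus strand) was between 16.1 and 173 CPM in the OHC-like cells (median 56.8) and at most 1.16 CPM in the failing cells, where 5 counts were found in all. Its median in the WT_P30 OHCs was 1649 CPM, so its level in every OHC-like cell was far under that median.

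The 2 factors turned on by tamoxifen were present in every cell of both types. Atoh1 was between 788 and 13590 CPM in the OHC-like cells (median 5810) and between 384 and 27059 CPM in the failing cells (median 2479), a ratio of 0.04. Ikzf2 was between 106 and 1102 CPM in the OHC-like cells (median 410) and between 114 and 1950 CPM in the failing cells (median 529), a ratio of -0.64. The ranges overlapped for both genes and neither was past 4-fold. The highest Atoh1 and Ikzf2 of all 26 cells were in failing cell 6, at 27059 and 1950 CPM. The deposited counts do not separate transcripts of the transgenes from those of the endogenous genes.

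**Figure D1:**
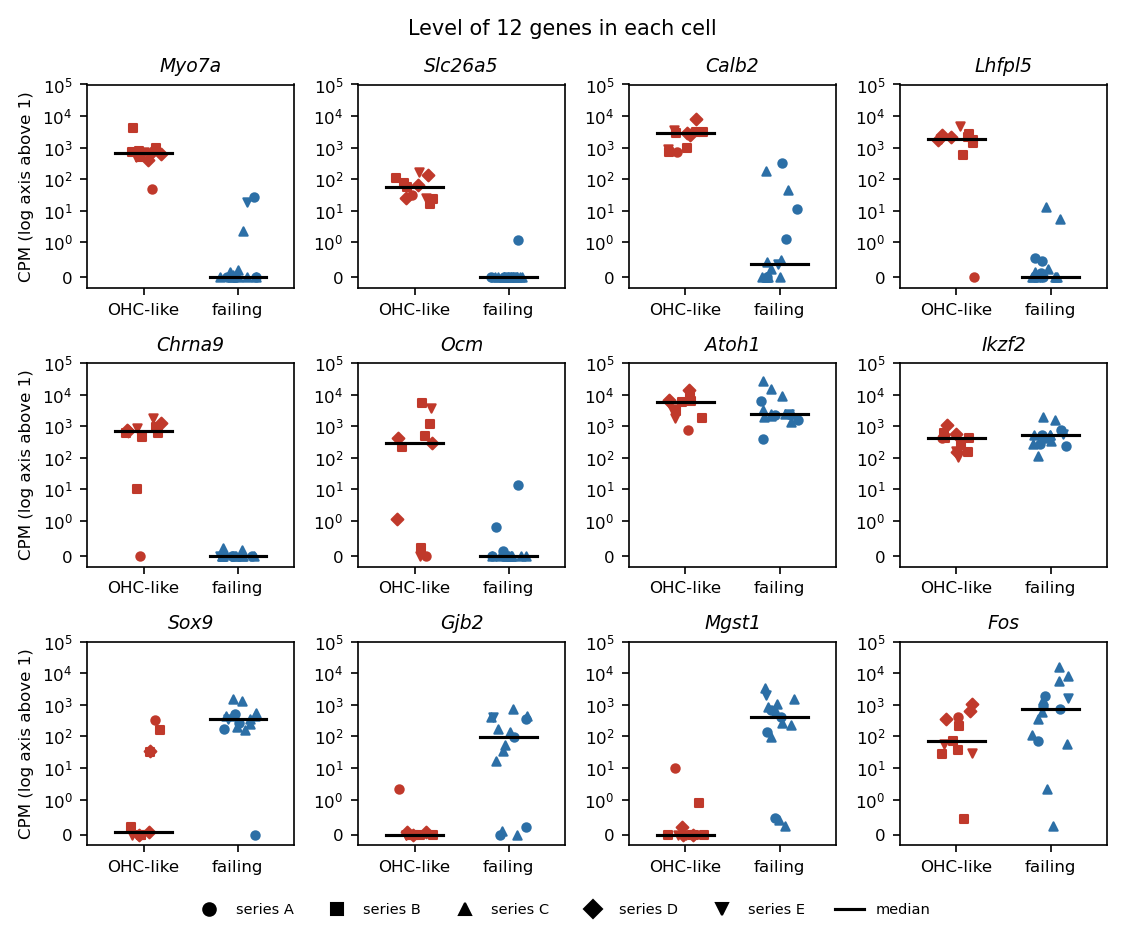
Level of 12 genes in each cell in CPM, on an axis that is logarithmic above 1 CPM, with the 11 OHC-like cells in red and the 15 SCs failing to become HCs in blue, marker shapes for the library series and black lines for medians. Atoh1 and Ikzf2 overlapped between the types, Myo7a, Slc26a5 and Calb2 did not, and OHC-like cell 1 (red circle) was at 0 for Lhfpl5, Chrna9 and Ocm.

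Of the genes compared, 8 (0.0724%) had no overlap with OHC-like cells higher. Myo7a and Slc26a5 were among them, which the sort largely set. Calb2, which encodes the calcium buffer calretinin (chr8:110137502-110168210, minus strand), was between 713 and 7813 CPM in the OHC-like cells (median 2926) and at most 326 CPM in the failing cells (median 0.39), a ratio of 6.10. Calml4, a calmodulin-like protein, was between 721 and 1801 CPM against at most 196 CPM, which failing cell 9 held as the only failing cell with the gene detected. Plbd1, a phospholipase B-like protein, was between 816 and 9172 CPM against at most 588 CPM. Triobp, which encodes an actin bundler of the stereocilia rootlets, was between 783 and 1576 CPM against 0 to 528 CPM, a ratio of 2.61. It was the only one of the 8 that most failing cells also expressed, with detection in 13 of 15. The long noncoding RNA Rncr4 was between 20.2 and 294 CPM against at most 11.2 CPM. Cbfa2t3, a transcriptional corepressor, had no count in any failing cell and was between 1.94 and 371 CPM in the OHC-like cells, a mean at least 365-fold higher than a floor of 3 counts per library.

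No gene (0%) had no overlap with OHC-like cells lower. Without OHC-like cell 1 the number of genes with no overlap and OHC-like cells higher was 40 in place of 8, and 25 of these 40 were listed at 0 in cell 1. Among them were Lhfpl5, Chrna9, Gipc3, Aplp1 and Cnp, of which the last 3 were chosen after their values were seen. Gipc3, in which variants cause deafness, was between 31.0 and 653 CPM in the other 10 OHC-like cells and had no count in any failing cell.

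The 15 genes furthest past 4-fold in the higher direction included genes with known roles in hair cell function. Lhfpl5, a subunit of the mechanotransduction channel complex (chr17:28575641-28585679, plus strand), was between 0 and 4918 CPM in OHC-like cells (median 1815), with 0 in cell 1 alone. It was detected in 10 of 11 OHC-like cells and in 2 of 15 failing cells, where the highest value was 13.0 CPM. Chrna9, a subunit of the acetylcholine receptor through which efferent neurons act on OHCs, was between 0 and 1853 CPM in OHC-like cells (median 683) and was detected in 0 of 15 failing cells, for which the exact binomial upper limit (Clopper-Pearson, 95%, for counting error only) is a share of 21.8%. Its 4 counts over all failing cells stood against 90981 in the OHC-like cells.

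The calcium buffers of this set differed more among the OHC-like cells than the genes above. Ocm, which encodes oncomodulin, the main EF-hand buffer of mature OHCs, was between 0 and 5611 CPM (median 286), and 7 of 11 OHC-like cells had it detected. Cells 1 and 10 had no count of it and cells 4 and 7 held 0.23 and 1.14 CPM. Pvalb, parvalbumin, was between 0 and 1972 CPM (median 285), with detection in 7 of 11. Against these, the failing cells held at most 13.9 CPM of Ocm and 35.1 CPM of Pvalb.

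Igll1 and Ecel1 had the largest ratios of the set. Igll1, an immunoglobulin lambda-like polypeptide known from precursor B cells, was between 0 and 4337 CPM in OHC-like cells (median 1145), had no count in any failing cell and was at least 3973-fold higher by its mean against the floor. Ecel1, an endothelin-converting enzyme-like protease, was between 0 and 7076 CPM (median 1471), with 1 count in all failing cells. Both were at 0 in OHC-like cells 1 and 11 and under 2 CPM in cell 5, and Ecel1 was also at 0.11 CPM in cell 6. Their highest values were 7076 CPM for Ecel1 in cell 7 and 4337 CPM for Igll1 in cell 4. The median of each gene was 0 in the WT_P30 OHCs and in the WT_P60 SCs. Alpl, alkaline phosphatase, had a median of 533 CPM and the chemokine gene Cxcl14 of 228 CPM in OHC-like cells, and both had a median of 0 in both wild-type groups. Cxcl14 had no count in failing cells and was at least 614-fold higher by its mean. Cacna1b, a calcium channel subunit of neurons, had a median of 222 CPM against 0 CPM, and Tmem255b and Ecm1 had medians of 300 and 146 CPM against 0 CPM. Exons of Tmem255b overlap Gas6 on the other strand, as do those of Cbfa2t3, Triobp, Tmie, Tomt, Strc and Rab3a with other genes, and whether the counting used strand is not stated. The same holds for further genes named here, among them Lhx3, Cacna1d, Kcnn2, Pclo, Cacnb2, Syp, Notch1, Cpxm2 and Ikzf2. Exons of Ecm1, Neat1 and Bsn overlap other genes on the same strand. Odf3l2 was between 0 and 776 CPM in OHC-like cells (median 367) and had no count in any failing cell, while its median in the WT_P60 SCs was 6554 CPM and in the WT_P30 OHCs 0 CPM.

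**Figure D2:**
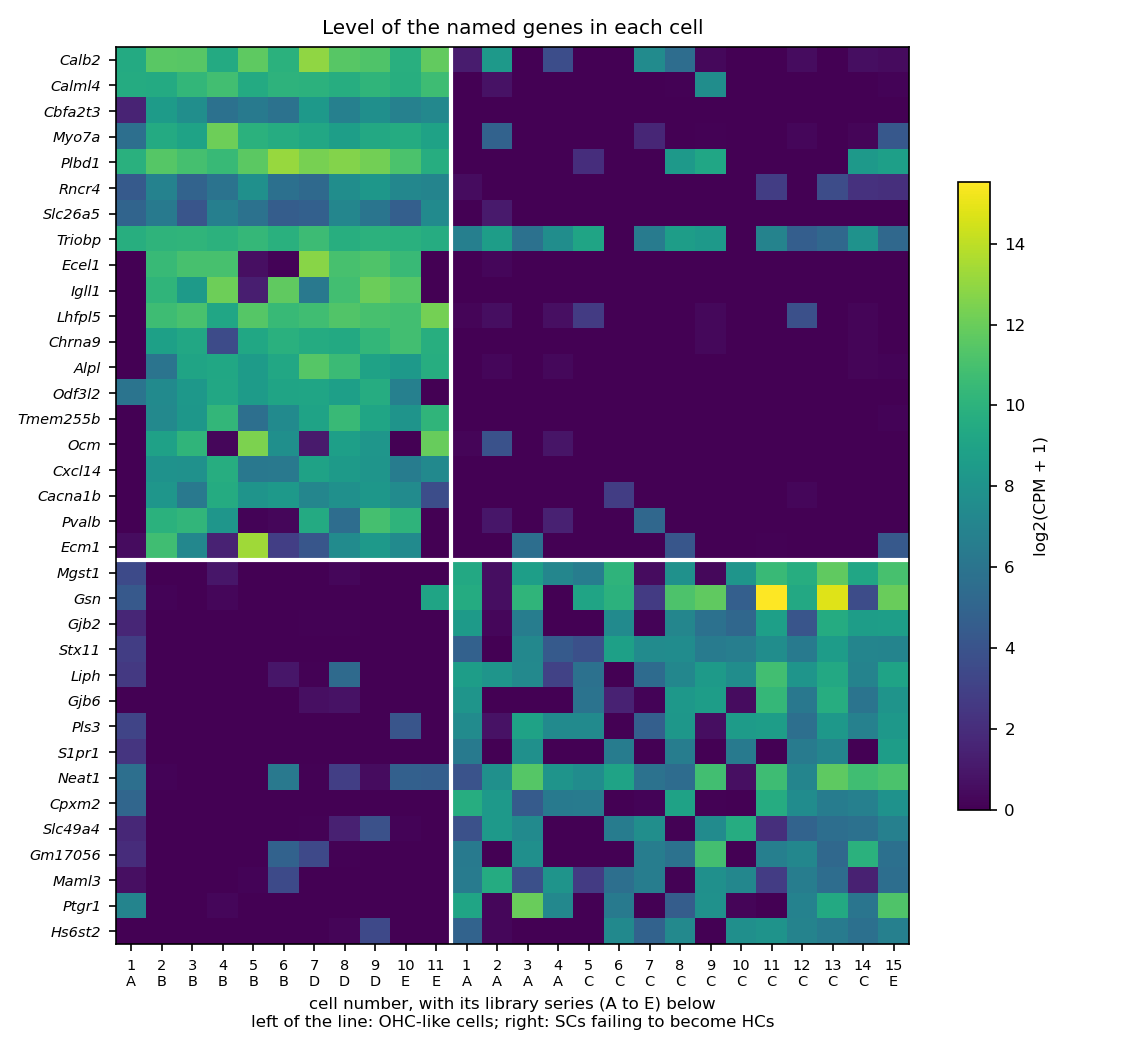
Heat map of log2(CPM + 1) for the 8 genes with no overlap, those reported here of the 15 furthest past 4-fold higher and the 15 furthest past 4-fold lower, in each of the 26 cells, with cell number and library series below. OHC-like cell 1 was dark for most of the genes that the other OHC-like cells held and held 131 CPM of Ptgr1, 49.5 CPM of Neat1 and 34.5 CPM of Cpxm2, its highest values in the lower block.

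The genes furthest past 4-fold in the lower direction included 8 of 15 that were also past 4-fold higher in WT_P60 SCs than in WT_P30 OHCs. Mgst1, a microsomal glutathione transferase (chr6:138140316-138156755, plus strand), was between 0 and 10.3 CPM in OHC-like cells and between 0.24 and 3433 CPM in failing cells (median 426), a ratio of -8.54. Its highest OHC-like value was in cell 1, and 3 failing cells lay under that value, so the types overlapped. Gjb2 and Gjb6, which encode the connexins 26 and 30 of the SC gap junctions and lie next to each other on chromosome 14, were at most 2.22 and 0.68 CPM in OHC-like cells. In failing cells Gjb2 was between 0 and 752 CPM (median 97.0) and Gjb6 between 0 and 1292 CPM (median 62.7), with detection in 11 of 15 and 10 of 15. Without series C, which holds 10 of the 15 failing cells, Gjb6 and Hs6st2 were no longer past 4-fold.

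Gsn, which encodes the actin-severing protein gelsolin, had a median of 754 CPM in failing cells and reached 47597 CPM in cell 11, while 9 of 11 OHC-like cells did not have it detected. The other OHC-like cells held 534 CPM (cell 11) and 19.0 CPM (cell 1). Pls3, the actin bundler plastin 3, had medians of 174 CPM in failing and 0 CPM in OHC-like cells. The long noncoding RNA Neat1, the scaffold of nuclear paraspeckles, had medians of 259 and 0.43 CPM. Maml3, a coactivator of Notch signalling, was detected in 14 of 15 failing cells and in 1 of 11 OHC-like cells, and S1pr1, a sphingosine-1-phosphate receptor, in 8 of 15 and 1 of 11. Stx11 and Liph, a syntaxin and a lipase, were each detected in 14 of 15 failing cells, with medians of 128 and 199 CPM. The remaining genes, Cpxm2, Slc49a4, Gm17056, Ptgr1 and Hs6st2, had ratios between -5.73 and -5.42 and medians of 0 CPM in OHC-like cells. Slc49a4 and Gm17056 had medians of 1.70 and 21.4 CPM in the WT_P60 SCs. Those of Maml3, S1pr1, Cpxm2, Ptgr1 and Hs6st2 were 0 CPM in the WT_P60 SCs and in the WT_P30 OHCs. Exons of Gm17056 overlap Lsmem1 on the other strand.

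Among hair cell transcription factors and early regulators, 6 of 17 genes compared, of 20 listed, were past 4-fold higher, against 6.21% of all genes, and none was past 4-fold lower. The median ratio of the list was 1.54, and it was 0.91 without OHC-like cell 11, 2.89 without failing cell 7 and 2.17 without failing cell 12. Barhl1, a homeobox factor needed to maintain hair cells, was detected in 10 of 11 OHC-like cells (median 194 CPM) and in 4 of 15 failing cells (median 0 CPM). Lhx3, a LIM homeobox factor of hair cells, had medians of 242 and 0 CPM, and Insm1, a zinc finger factor of nascent OHCs, of 90.1 and 0 CPM. St18, Rbm24 and Lbh were the others, at medians of 71.4, 12.8 and 9.57 CPM against 0 CPM. The median of Lbh was 547 CPM and that of Rbm24 523 CPM in the WT_P30 OHCs. Eya1 and Gata3, factors of the otic lineage shared by both cell classes, had ratios of -0.02 and -0.48. Pou4f3, a factor hair cells need to survive, was detected in 1 of 11 OHC-like cells, cell 11, at 691 CPM and had no count in any failing cell.

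Of 6 mechanotransduction channel genes compared, of 7 listed, 5 were past 4-fold higher, against 6.21% of all genes, with a median ratio of 4.31. Without OHC-like cell 11 the median was 2.55. Cib2, a calcium-binding subunit, was between 1629 and 6664 CPM in OHC-like cells (median 3979) and between 0 and 3766 CPM in failing cells (median 266). It was detected in 14 of 15 failing cells, and its exons overlap Sh2d7 on the other strand. Tmie had medians of 80.0 and 0 CPM, and Cib3 of 30.9 and 0 CPM, with no count of Cib3 in a failing cell. Tomt, which brings the channel to the stereocilia, was low, with medians of 3.85 and 0 CPM. The pore subunit Tmc1 was detected in 2 of 11 OHC-like cells and no failing cell, with a median of 0 CPM in the OHC-like cells and of 1162 CPM in the WT_P30 OHCs.

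Of the tip link, ankle link and Usher genes, 2 of 7 compared, of 10 listed, were past 4-fold higher, against 6.21% of all genes. Among these was Cdh23, a cadherin of the tip link, with a median of 52.7 CPM in OHC-like cells, detection in 7 of 11 and no count in a failing cell. The partner of Cdh23 in the tip link, Pcdh15, had a ratio of -0.04 with medians of 87.9 and 42.5 CPM.

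Among 26 stereocilia and cuticular plate genes compared, of 29 listed, 3 were past 4-fold higher and 2 lower, against 6.21% and 3.12% of all genes. The number higher was 5 without OHC-like cell 1, 6 or 8, and the number lower was 1 without failing cell 11. The median ratio of 1.28 was 0.18 without OHC-like cell 11, and the list median by the ratios of medians was 0. Strc, which encodes stereocilin, a protein that ties OHC stereocilia to each other and to the tectorial membrane, had a median of 66.7 CPM in OHC-like cells and was detected in no failing cell. Clic5 had medians of 35.0 and 0 CPM, and Triobp is given above. Espn, an actin bundler, had medians of 684 and 185 CPM and Myo6, a minus-end-directed myosin, of 1013 and 405 CPM. Both were detected in all 26 cells and neither was past 4-fold. Eps8, an actin-capping protein of stereocilia tips in hair cells, was past 4-fold lower, with medians of 0 CPM in OHC-like and 90.9 CPM in failing cells. The actin bundler Fscn1 was lower as well, at 0.42 and 27.9 CPM. Genes of mature bundles such as Grxcr1, Grxcr2 and Ptprq had medians of 0 CPM in both types.

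Of 8 genes compared of the OHC membrane and the efferent synapse, of 9 listed, 6 were past 4-fold higher, against 6.21% of all genes. Among them were Chrna9, Strip2 and Cacna1d, and the median ratio of the list was 4.52, or 3.57 without OHC-like cell 11. Atp2b2, the calcium pump of stereocilia, had medians of 238 and 0 CPM. Kcnn2, the channel that follows the efferent receptor, was past 4-fold higher at a low level, with medians of 6.48 and 0 CPM. The other receptor subunit, Chrna10, was detected in 1 OHC-like cell alone, cell 11, at 240 CPM.

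Among 11 EF-hand genes, all compared, 5 were past 4-fold higher (Ocm, Pvalb, Calb1, Calb2 and Cabp2) and S100b lower, with 2 lower without OHC-like cell 1. The shares of all genes were 6.21% higher and 3.12% lower. Calb1, calbindin, was detected in 9 of 11 OHC-like cells and 1 of 15 failing cells, with 4565 CPM as its highest value in the former and 1.86 CPM in the latter. S100b had medians of 0 and 430 CPM, and the highest OHC-like value, 694 CPM, was in cell 1. Of 11 ribbon synapse and release genes compared, of 14 listed, 5 were past 4-fold higher (Bsn, Pclo, Cacnb2, Rab3a and Syp), against 6.21% of all genes, with a median ratio of 2.70. Without OHC-like cell 4 there were 4 and the median was 1.51, without OHC-like cell 11 there were 4 and it was 1.33, and without failing cell 7 it was 3.78. Rab3a, a GTPase of synaptic vesicles, was between 67.9 and 798 CPM in OHC-like cells (median 300) and between 0 and 234 CPM in failing cells (median 36.6). Otof and Slc17a8, which release and load glutamate at the inner hair cell synapse, were at most 1.55 and 0.24 CPM in any of the 26 cells. In the WT_P30 OHCs, Otof had a median of 426 CPM and was detected in 14 of 17 cells.

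**Figure D3:**
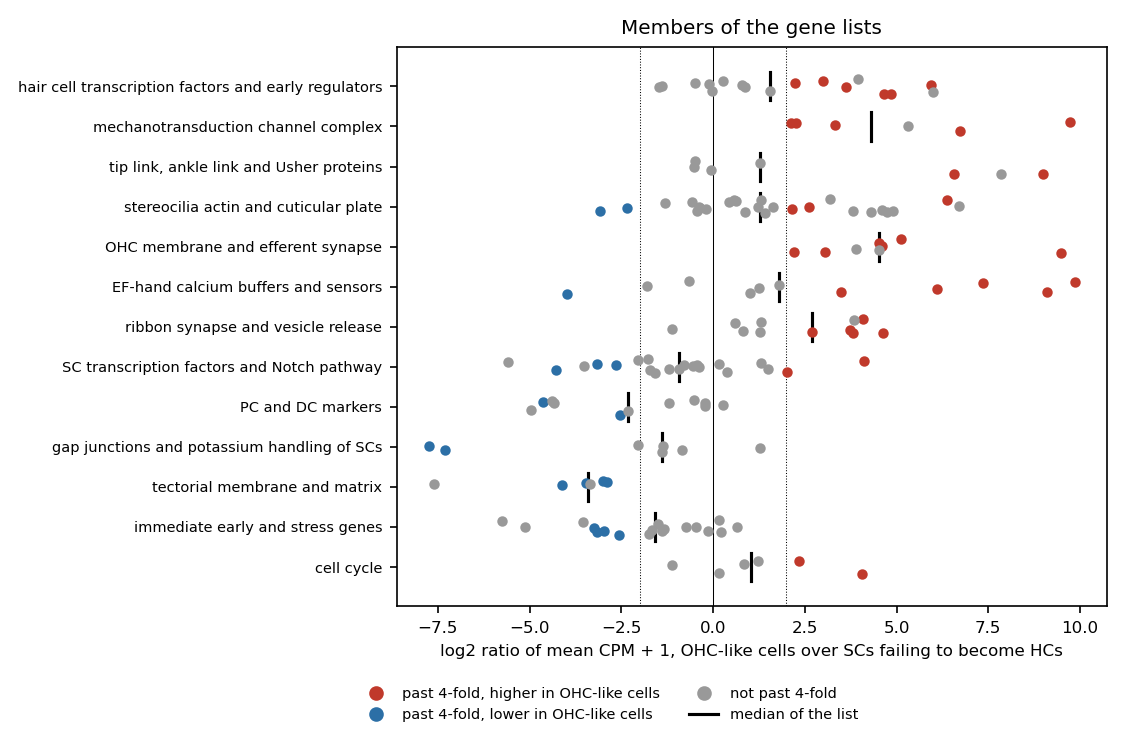
Log2 ratio of mean CPM + 1, OHC-like over failing cells, for each gene compared of 13 lists, colored by whether it was past 4-fold, with a black bar at the median of each list and dotted lines at 4-fold. Hair cell lists lay to the right of 0 by their medians, SC, matrix and immediate early lists to the left. With ratios of medians, not drawn, list medians were 0 for stereocilia genes and above 0 for the other hair cell lists. They were -0.15 for SC factors and Notch, -0.67 for PC and DC markers and -0.31 for immediate early genes. The gap junction and matrix lists had -1.59 and -5.13.

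Leaving out 1 cell moved some medians not given elsewhere by over 1.5 times, for the tip link list from 1.29 to 0.36 (OHC-like cell 6) or 3.34 (failing cell 7), for the PC and DC list from -2.33 to -3.15 (OHC-like cell 1), -1.67, -1.12 or -1.20 (failing cells 4, 9 and 11), and for the gap junction list from -1.39 to -2.25 (OHC-like cell 1).

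Among SC transcription factors and the Notch pathway, 3 of 21 genes compared, of 22 listed, were past 4-fold lower and 2 higher, against 3.12% and 6.21% of all genes. Sox2 and Sox9, factors that SCs keep after development, had medians of 0 and 0.08 CPM in OHC-like cells and of 56.2 and 366 CPM in failing cells. Sox9 was detected in 14 of 15 failing cells and in OHC-like cells 1, 2, 3 and 9, at 342, 165, 32.3 and 33.4 CPM. Notch1, the receptor, had medians of 0 and 10.3 CPM. The genes that were higher encode Notch ligands: Jag2, with medians of 346 and 0.14 CPM and a ratio of 2.02, just past 4-fold, and Dll3, with medians of 302 and 0 CPM. The number higher was 1 without OHC-like cell 5, 7, 9 or 10 or without failing cell 1, 3, 4, 6, 7 or any of 9 to 15, and the number lower was 5 without failing cell 3, 6, 7 or 9. Jag1, the ligand of SCs, had a ratio of -1.73. The effectors Hes1, Hey1, Hey2 and Heyl had ratios of -1.76, -3.52, -2.03 and -0.92 and Hes5 one of 1.31, and they were not past 4-fold by means and medians together.

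Of 11 PC and DC markers compared, of 15 listed, Bace2 and Spry2 were past 4-fold lower and none was higher, against 3.12% and 6.21% of all genes. Bace2, a protease found in SCs, had medians of 0 and 609 CPM, and the only OHC-like cell with a high level was cell 1, at 623 CPM. Fgfr3, the gene whose promoter drives the Cre, was between 159 and 630 CPM in OHC-like cells (median 289) and between 0 and 1392 CPM in failing cells (median 259), and it had a ratio of -0.21. The gap junction and potassium list had Gjb2 and Gjb6 past 4-fold lower of 7 compared and 12 listed, against 3.12% of all genes. Of 6 tectorial membrane and matrix genes compared, of 15 listed, 4 (Otog, Otogl, Col9a2 and Sparc) were past 4-fold lower, against 3.12% of all genes. The list median was -3.42, or -5.94 without OHC-like cell 1. Otog, otogelin, had medians of 0 and 1083 CPM and Sparc, a secreted matrix protein, of 0.33 and 3267 CPM. The highest OHC-like values of Otog and Sparc, 887 and 6210 CPM, were both in cell 1, and the next highest were 24.4 and 75.4 CPM in cell 11.

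Immediate early and stress genes held 4 of 18 genes compared, of 21 listed, past 4-fold lower (Fos, Fosb, Jun and Cdkn1a) and none higher, against 3.12% and 6.21% of all genes. The list had a median ratio of -1.59, or -0.69 without series C, and a median of -0.31 by the ratios of medians. Fos, which is induced within minutes of stimulation or handling, was between 0.45 and 1080 CPM in OHC-like cells (median 70.3) and between 0.25 and 16088 CPM in failing cells (median 757). Jun had medians of 129 and 700 CPM. Within series E, Fos was 44.6 CPM on average in 2 OHC-like cells and 1703 CPM in 1 failing cell. Within series A it was 419 CPM in the OHC-like cell and 904 CPM on average in 4 failing cells. Fosb went the other way within series A, at 349 CPM against 188 CPM on average. Of the whole list, 1 gene was past 4-fold higher and 0 lower within series A, and 1 higher and 10 lower within series E. Cdkn1a, the inhibitor p21, had medians of 0.23 and 189 CPM. The part of the library series in these differences was not tested. Of 6 cell cycle genes compared, of 15 listed, Mcm2 and Cdkn1c, the inhibitor p57, were past 4-fold higher, against 6.21% of all genes. Their medians were 66.1 and 165 CPM against 0 CPM. Mki67, a marker of dividing cells, was at most 3.97 CPM in any of the 26 cells, and Top2a, a topoisomerase of dividing cells, had no count.

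Markers of other cell types differed by list. Of 6 inner hair cell markers, Slc17a8, Otof, Fgf8, Tbx2 and Slc7a14 were below the minimum for the comparison, although Otof was held by the WT_P30 OHCs as given above. The other, Nrxn3, a synaptic adhesion protein, had medians of 65.8 CPM in OHC-like and 0 CPM in failing cells and a ratio of 1.30, so it was not past 4-fold. The sum of 5 blood genes was 2678 CPM in OHC-like cell 2, with Hba-a1 at 1143 CPM, and Hba-a1 was at most 9.04 CPM in each of the other cells. Hba-a1 has a near-identical copy, so its share of these reads is uncertain. Of 7 macrophage genes, C1qa, C1qb, C1qc and Cx3cr1 had no count in the 26 cells. Cd68, a lysosomal protein, was past 4-fold lower, at a median of 0 CPM against 19.6 CPM. The summed fibroblast markers were between 0 and 265 CPM in OHC-like cells and between 0 and 2030 CPM in failing cells, the latter from Lum at 1897 CPM in 1 cell. Summed endothelium markers were at most 24.3 CPM. Summed neuron and glia markers were at most 429 and 170 CPM in OHC-like cells and 70.7 and 63.5 CPM in failing cells. Mbp, which encodes a myelin protein, was past 4-fold higher with medians of 80.7 and 0 CPM, while the myelin gene Pmp22 had no count in an OHC-like cell.

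The wild-type cells gave a reference that shares no cell with this comparison. However, the WT_P30 OHCs and the WT_P60 SCs were each in a library series of their own. They also differed in age, Cre line and days of tamoxifen, as given above. In this reference, type cannot be told apart from series, age, line or treatment days. By the same rule, 542 of the 11045 genes were higher in WT_P30 OHCs (4.91%) and 1214 were lower (11%). These are here called OHC genes and SC genes. The 11045 genes were themselves kept for a mean of at least 5 CPM over the OHC-like and failing cells together. Wild-type genes low in both types are thus left out, and a gene silent in failing cells entered only through the OHC-like cells. The shares and numbers detected below describe these lists and not all wild-type OHC or SC genes. Of the OHC genes, 134 (24.7%) were past 4-fold higher in OHC-like cells than in failing cells and 5 (0.923%) lower, against 6.21% and 3.12% of all genes. Of the SC genes, 158 (13.0%) were past 4-fold lower and 35 (2.88%) higher. Read the other way, OHC genes made up 19.5% of the genes past 4-fold higher, and SC genes 45.8% of those past 4-fold lower. The median ratio was 1.11 over OHC genes and -0.75 over SC genes. Without OHC-like cell 1 the counts were 147 and 208 in place of 134 and 158.

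Some genes went the other way. The 5 OHC genes that were lower in OHC-like cells were Ctdnep1, Foxn3, Maml2, Morc2a and Osbpl1a, of which Osbpl1a, an oxysterol-binding protein, had medians of 0 CPM in OHC-like and 168 CPM in failing cells. Odf3l2, Kcnh7, Chil1 and Enho were among the 35 SC genes that were higher in OHC-like cells. Enho, which encodes adropin, had medians of 769 CPM in OHC-like cells, 17.6 CPM in failing cells and 947 CPM in the WT_P60 SCs. These 9 genes, apart from Odf3l2, were chosen after their values were seen.

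In single cells, between 209 and 466 of the 542 OHC genes were detected in an OHC-like cell (median 413) and between 174 and 362 in a failing cell (median 265). The numbers of the 1214 SC genes overlapped over most of their range, at 286 to 1029 (median 804) and 561 to 986 (median 820). The types differed in how many counts these genes took. SC genes took between 4.57% and 17.6% of the counts of an OHC-like cell (median 9.52%) and between 12.8% and 30.3% of a failing cell (median 21.1%). OHC genes took 6.82% to 23.2% (median 12.4%) and 3.31% to 12.1% (median 4.53%). Some OHC genes are mitochondrial, and mitochondrial genes together took a median of 6.54% of the counts in OHC-like and of 2.31% in failing cells.

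**Figure D4:**
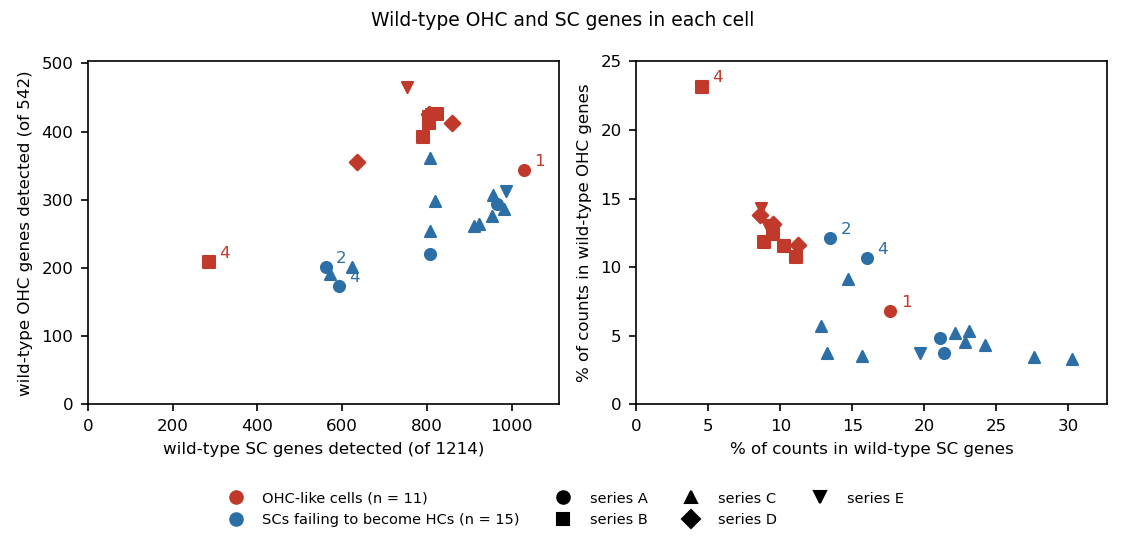
Each point is 1 cell, with the number of wild-type OHC genes detected against that of wild-type SC genes on the left and the share of counts in the same genes on the right, in red for OHC-like cells and blue for SCs failing to become HCs, with shapes for the library series. OHC-like cells 1 and 4 and failing cells 2 and 4 are numbered. By shares of counts OHC-like cell 1 (17.6% and 6.82%) lies among the failing cells, and by genes detected it has the most SC genes (1029).

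The OHC-like cells were not uniform. Cell 1 had 1029 SC genes detected, the most of the 26 cells, and 17.6% of its counts in them, within the range of the failing cells. It carried Calb2 (713 CPM), Calml4 (739 CPM), Cib2 (1629 CPM) and Slc26a5 (31.5 CPM), was at 0 for Lhfpl5, Chrna9, Barhl1, Ocm and Pvalb, and its Atoh1, at 788 CPM, was the lowest of the OHC-like cells. Within series A, where cell 1 stood against failing cells 1 to 4, 16 of the 35 genes ranked furthest or without overlap and reported here were not past 4-fold, 8 of them because neither type held more than 3 counts in a cell. Within series E, with OHC-like cells 10 and 11 and failing cell 15, 34 of the 35 were past 4-fold in the same direction, the exception being Plbd1. These comparisons rest on 5 and 3 cells, which were also among the cells used to choose these genes.

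Cell 11 stood at the other end. It had 466 OHC genes detected, the most of the 26 cells, and 78 of 94 genes of the hair cell lists, against 35 to 63 in the other OHC-like cells. Of 9 hair cell list genes that were detected in 1 OHC-like cell only, 6 were in cell 11. These were Pou4f3, Ush1g, Ptprq, Grxcr1, Grxcr2 and Chrna10, and all but Ush1g were detected in 16 or 17 of the 17 WT_P30 OHCs. Cell 11 also had the highest Slc26a5 of the OHC-like cells, at 173 CPM, the lowest Ikzf2, at 106 CPM, and 3641 CPM of Atoh1, a gene whose median was 0 in the WT_P30 OHCs. It held no count of Igll1, Odf3l2 or Pvalb.

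The failing cells varied as well. Cell 7 had 362 OHC genes and 43 of the 94 hair cell list genes detected, the most of the failing cells, with Calb2 at 182 CPM, Pvalb at 35.1 CPM and Mgst1 at 0.43 CPM. Cell 2 held the highest Calb2 of the failing cells, at 326 CPM, the highest Myo7a, at 28.1 CPM, and the only Slc26a5, at 1.16 CPM, but it had few genes detected and 11.2% of its counts in mitochondrial genes. Both cells had Atoh1 within the range of the OHC-like cells, at 3236 and 6165 CPM. Hair cell list genes detected numbered between 20 and 43 in the failing cells and between 35 and 78 in the OHC-like cells, where the lowest were cell 4 (35) and cell 1 (37).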

How the data were processed

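The authors sequenced single cells amplified as full-length cDNA with Smart-Seq and deposited a single matrix of unnormalized gene counts, 1 column a cell. Per the labels and the submitters' processing notes, the tools were FastQC 0.11.9 for quality and Trimmomatic 0.39 for trimming, and HISAT2 2.1.0 aligned reads to GRCm38 before counting with HTSeq 0.10.0; the annotation release and the use of strand are not given in the sources used here. Replicates were not pooled. All 75 columns were matched to samples by name, and no 2 columns were identical. A WPRE row, not a mouse gene, with 0.025% of counts, was left out.

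Scaling used TMM in edgeR 4.0.16 (R 4.3.3) on 11443 of 55291 genes with a minimum count of 10 by group. Genes with a mean of at least 5 CPM over the 26 cells were compared (11045). Other steps used python 3.11.15, numpy 2.4.6, pandas 2.3.3, scipy 1.17.1 and matplotlib 3.10.9. The fold rule was tested on simulated data. Cells were picked by hand and no doublet caller was run.

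No model over cells was fitted, since no animal is named. The comparison, the gene lists and the rules were chosen with earlier results of these data known. Named genes were the members of 22 lists, the 15 genes furthest past 4-fold in each direction by the smaller of the ratios of means and medians, the genes with no overlap, Atoh1, Ikzf2, Myo7a and Slc26a5. List members not named are given by counts only or are not reported here. Coordinates are from GENCODE M21 and promoters from RefSeq (GRCm38.p6), where 515 of 686 and 273 of 345 genes past 4-fold matched by symbol. The alternatives were other scalings (library size, DESeq2 1.42.0 size factors), added values, filters and fold rules, thinning, other group values, and leaving out cells or library series.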

Additional observations from a re-analysis of the deposited data

How the results depend on the processing

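Without each cell in turn, genes past 4-fold higher numbered 654 to 796, lower 306 to 440, with no overlap 8 to 40 higher (40 without OHC-like cell 1) and 0 to 1 lower, wild-type OHC genes that were higher 129 to 147 and wild-type SC genes that were lower 136 to 208. With 10 CPM added, 313 genes were higher and 158 lower, with 85 OHC and 94 SC genes. With the ratio of means alone the numbers were 1126 and 1274 (273 SC genes), at 2-fold 1712 and 917 (226 OHC and 346 SC genes) and at 8-fold 305 and 141 (74 and 70). Summed counts gave 1079 and 1276 (296 SC genes), and means of series means 1236 and 1150. Without series C, 1182 genes were higher. Within series A 1424 were higher and 1151 lower (84 OHC genes), and within series E 2794 and 1710 (307 OHC and 382 SC genes). No overlap, higher, held for 59 genes without OHC-like cells 1 and 4 and failing cells 2 and 4 (a set chosen after seeing the data), 45 without series A, 26 without B, 35 without C, 2401 within A and 2997 within E. No overlap, lower, held for 3 genes without those 4 cells, 1 without OHC-like cell 4 and failing cells 2 and 4, 4 without series A, 1 without B, 9 without C, 251 within A and 3636 within E. Fewer cells make no overlap easier; other causes were not tested. Within series A the log2 ratios of Ocm (-2.24), Pvalb (-0.72) and Ecm1 (-3.18) had the opposite sign. Of 35 genes ranked furthest or without overlap and reported here, 35 stayed past 4-fold without each cell in turn. These genes were chosen from the same cells for large ratios or no overlap, so this outcome was largely set by the choice. No paired analysis was possible because the results come from no test and cell numbers link no cells across types.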
